A study of Homo sapiens with 6 samples.

Results

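The genes described here are the chondrogenic SOX trio (SOX9, SOX5 and SOX6) and 5 genes of cartilage and its growth control (COMP, MATN2, MATN3, TRPS1 and PTHLH). They were taken by gene symbol from the count table, 8 of the 58735 genes it holds, and each symbol matched 1 gene. UE7T-9 is a human mesenchymal stem cell line derived from bone marrow. The control group was UE7T-9 cells of genotype WT, and the other group was the UE7T-9 SRRM4 KO line, in which SRRM4, a splicing factor known from neurons, was targeted by CRISPR delivered with a lentivirus. All cells were grown in DMEM without a chondrogenic treatment named in the labels. RNA of 3 libraries in each group was measured by non-stranded mRNA-seq. The SRRM4 KO line is a clone made by limiting dilution after puromycin selection, and the study's text says that it kept part of the SRRM4 protein. The labels do not say whether the control cells received a vector or selection. The knockout, the vector with its selection, and the choice of that clone cannot be told apart in this comparison, and nothing in the labels says that the libraries of a group came from separate cultures, so p-values measure the spread between these libraries only.

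The comparison asks whether genes of cartilage moved with SOX9. SOX9 is the transcription factor that commits mesenchymal cells to the chondrocyte fate. SOX5 and SOX6 lack an activation domain of their own and assist SOX9 on the enhancers of cartilage matrix genes. Matrilins (MATN2 and MATN3) and COMP are secreted proteins that link collagen fibrils and proteoglycans. PTHLH encodes parathyroid hormone-related protein, the signal that holds growth plate chondrocytes in proliferation, and TRPS1 is a GATA-type zinc finger repressor active in growth plate cartilage.

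In the SRRM4 KO libraries SOX9 rose 3.13-fold, and none of the other 6 tested genes rose with it. SOX6, MATN3 and MATN2 fell, by 1.85-fold, 1.56-fold and 1.19-fold. SOX5, TRPS1 and PTHLH did not pass the test, and COMP had too few reads to be tested. In bulk RNA, fewer cells expressing a gene and less RNA per cell cannot be told apart. A gene is said to have passed when its adjusted p in edgeR's quasi-likelihood test (Benjamini-Hochberg over 15341 genes) was under 0.05, and to be called when its log2 fold change was also beyond 1. Of the 7 tested genes, 1 passed higher and 3 lower, while 20.7% of all tested genes passed higher and 20.9% lower. SOX9 alone was called higher and 0 genes were called lower, against 5.45% and 7.14% of all tested genes. DESeq2 gave the same counts of called genes, 1 higher and 0 lower, and no other tested gene was higher at an unadjusted p under 0.05. The median log2 fold change of the 7 genes was -0.22, and that of all tested genes was -0.005.

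The 3 SOX proteins bind DNA through the HMG box, a domain whose coding sequence is shown because it is what the trio shares and where SOX5 and SOX6 resemble each other more than SOX9. Each line holds 243 coding bases (81 codons), 5′ to 3′ on the coding strand, read from GRCh38 with the exons of GENCODE release 29 and with the intron between the exons left out. Capitals mark the 128 positions (52.7%) at which all 3 genes have the same base. The SOX9 stretch, codons 97 to 177, lies within chr17:72121680-72122818 on the plus strand in exons 1 and 2. The SOX5 stretch, codons 548 to 628, lies within chr12:23536557-23543340 on the minus strand in exons 13 and 14, and that of SOX6, codons 613 to 693, within chr11:15986308-15989126 on the minus strand in exons 14 and 15.
SOX9: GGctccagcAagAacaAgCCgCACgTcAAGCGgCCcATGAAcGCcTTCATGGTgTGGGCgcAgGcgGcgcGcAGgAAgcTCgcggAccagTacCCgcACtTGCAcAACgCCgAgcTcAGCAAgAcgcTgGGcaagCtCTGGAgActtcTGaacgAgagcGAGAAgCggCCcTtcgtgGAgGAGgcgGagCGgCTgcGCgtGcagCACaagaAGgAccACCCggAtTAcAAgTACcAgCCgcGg
SOX5: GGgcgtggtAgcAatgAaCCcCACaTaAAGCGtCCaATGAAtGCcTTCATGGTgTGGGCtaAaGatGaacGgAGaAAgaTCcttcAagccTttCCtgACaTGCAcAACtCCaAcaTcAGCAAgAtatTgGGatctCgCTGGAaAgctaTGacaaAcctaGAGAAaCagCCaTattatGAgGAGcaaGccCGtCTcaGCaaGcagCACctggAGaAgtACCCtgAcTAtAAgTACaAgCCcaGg
SOX6: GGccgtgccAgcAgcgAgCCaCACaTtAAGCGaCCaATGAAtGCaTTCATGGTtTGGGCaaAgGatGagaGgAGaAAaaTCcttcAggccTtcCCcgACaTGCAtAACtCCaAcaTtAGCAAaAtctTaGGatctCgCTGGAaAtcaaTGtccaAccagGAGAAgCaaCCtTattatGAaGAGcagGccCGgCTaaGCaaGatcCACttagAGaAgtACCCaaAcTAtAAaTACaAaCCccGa

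In these bases SOX5 and SOX6 were 80.2% identical, SOX9 and SOX5 61.7%, and SOX9 and SOX6 57.6%. Over whole annotated transcripts, untranslated parts included, the longest run of identical bases was 20 between SOX5 and SOX6. It was 37 between SOX9 and SOX8 and 45 between SOX9 and SOX10, the closest relatives of SOX9. How reads that fit several genes were counted is not given in the sources used here. SOX8 had 3, 4 and 7 counts in the control libraries and 0 in each SRRM4 KO library, and SOX10 had 4 counts in control replicate 3 and 0 elsewhere, so these copies held few reads in either group.

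The libraries held 21496117 to 23868323 counts, and a count of 0 allows up to 3 counts, or 0.123 to 0.139 CPM (the count of a gene scaled by the TMM-adjusted library size), which covers counting error only. Control replicate 1 stood apart from the other controls, with 22403 genes counted against 20613 and 20674. SRRM4 had 0 counts in all 6 libraries, so its RNA gives no check of the knockout. Of the defining markers of mesenchymal stem cells, NT5E rose (log2 fold change 0.52), ENG fell (-0.34) and THY1 was called lower (-2.43). The summed level of the 3 was 713 to 744 CPM in control and 707 to 714 CPM in SRRM4 KO libraries. The 7 markers that these cells should lack summed to 20.7 to 21.8 and 17.9 to 21.1 CPM, with PTPRC at 0 to 2 counts. Not all of them were absent, since CD14 had a mean of 16.8 CPM in control and 15.9 CPM in SRRM4 KO, and CD34 had 3.69 and 3.63 CPM. The 3 endothelial markers summed to 0.941 to 2.18 and 1.03 to 1.15 CPM, with PECAM1 at 0 to 3 counts. The 4 epithelial markers summed to 97 to 118 and 101 to 108 CPM, with EPCAM at 0 to 2 counts, KRT18 at a mean of 84.0 and 88.5 CPM, and KRT8 lower in SRRM4 KO (24.7 and 16.4 CPM, log2 fold change -0.59, adjusted p = 0.00674). CDH1 had 9 to 39 counts and did not pass. Of the chondrocyte markers, COL9A1 was at 0 in all 6 libraries, and CNMD and MATN1 had at most 2 and 6 counts. COL2A1, the main collagen of cartilage, had 1, 4 and 3 counts in control and 5, 8 and 4 in SRRM4 KO libraries. COL11A2 had 15 to 58 counts, and ACAN was abundant in the control libraries only. RNA of NT5E, ENG and THY1 was thus present in both groups, with THY1 lower in SRRM4 KO and with CD14, CD34 and KRT18 present, and protein was not analysed here.

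SOX9 (ENSG00000125398) lies on chromosome 17 from 72121020 to 72126420 on the plus strand and has 3 exon blocks. It had 109, 171 and 110 counts in control replicates 1 to 3, and 393, 436 and 450 in SRRM4 KO replicates 1 to 3. The groups did not overlap, since the highest control library, replicate 2, lay well below the lowest SRRM4 KO library. In CPM, SOX9 went from 5.96 ± 1.71 (SD, n = 3) to 18.7 ± 1.55 (n = 3). The log2 fold change was 1.65 (SE 0.18, 95% interval 1.25 to 2.04, adjusted p = 3.69e-06), and it stayed between 1.52 and 1.90 when each library was left out in turn. The antisense gene SOX9-AS1, which overlaps SOX9 without sharing exon bases, had 0 counts in all 6 libraries.

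SOX6 (ENSG00000110693), on chromosome 11 from 15966449 to 16739591 on the minus strand, moved the other way. It had 995, 796 and 934 counts in control and 556, 478 and 499 in SRRM4 KO libraries, with every SRRM4 KO library below every control library. The level fell from 41.6 ± 4.49 CPM to 22.4 ± 2.67 CPM (SD, n = 3 each), a log2 fold change of -0.89 (SE 0.12, 95% interval -1.15 to -0.63, adjusted p = 3.26e-05). Leaving out each library gave -0.98 to -0.81. SOX6 shares 219 of its 19636 exon bases with C11orf58 on the opposite strand, and reads of the shared bases cannot be assigned in non-stranded libraries. C11orf58 had 4278 to 5194 counts over the 6 libraries, and its groups overlapped.

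SOX5 (ENSG00000134532), on chromosome 12 from 23529500 to 24562544 on the minus strand, was the weakest expressed of the trio. It had 25, 17 and 21 counts in control and 28, 38 and 20 in SRRM4 KO libraries, and the groups overlapped. The level was 0.961 ± 0.183 CPM in control and 1.24 ± 0.326 CPM in SRRM4 KO (SD, n = 3 each). Its log2 fold change of 0.37 had an interval from -0.56 to 1.30 (SE 0.43, adjusted p = 0.533), and it ranged from 0.17 (without SRRM4 KO replicate 2; 0.25 without control replicate 2) to 0.54 as single libraries were left out. No change of SOX5 was detectable at this depth. The estimate for SOX9 lay above the interval of SOX5, but the intervals of SOX9 and SOX5 overlapped.

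Among the matrix proteins, MATN2 (ENSG00000132561; chromosome 8, 97868840 to 98036716, plus strand), a matrilin found in many connective tissues, was the most abundant of the 8 genes. It had 4474, 4584 and 4560 counts in control and 3633, 4228 and 4077 in SRRM4 KO libraries. All 3 SRRM4 KO libraries lay below the controls, at 163 to 185 CPM against 204 to 213 CPM. The mean went from 208 ± 4.34 CPM to 174 ± 11.1 CPM (SD, n = 3 each), with a log2 fold change of -0.26 (SE 0.08, 95% interval -0.43 to -0.09, adjusted p = 0.0174). MATN2 no longer passed when SRRM4 KO replicate 1 (adjusted p = 0.102), SRRM4 KO replicate 2 (0.0662) or control replicate 2 (0.0613) was left out. RPL30, on the opposite strand, overlaps MATN2 without sharing exon bases.

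MATN3 (ENSG00000132031; chromosome 2, 19992111 to 20012694, minus strand), a matrilin of growth plate cartilage, had 222, 130 and 167 counts in control and 111, 127 and 110 in SRRM4 KO libraries. The SRRM4 KO libraries were close to each other, the control libraries were spread, and the gap between the groups was small, from 6.03 CPM in control replicate 2 to 5.21 CPM in SRRM4 KO replicate 2. The level went from 7.92 ± 2.14 CPM to 5.07 ± 0.13 CPM (SD, n = 3 each), a log2 fold change of -0.64 (SE 0.21, 95% interval -1.09 to -0.20, adjusted p = 0.0208). Without control replicate 1, the library that stood apart, it was -0.42 and did not pass (adjusted p = 0.12), and without SRRM4 KO replicate 1 it was -0.64 with an adjusted p of 0.0543. The longest run of identical bases between the annotated transcripts of MATN3 and MATN2 was 14.

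COMP (ENSG00000105664; chromosome 19, 18782773 to 18791314, minus strand), a pentameric glycoprotein of cartilage and tendon, had 5 counts in control replicate 3 and 0 in the other 5 libraries. It was at or near the limit of detection in both groups, and no fold change is given.

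TRPS1 (ENSG00000104447; chromosome 8, 115408496 to 115809673, minus strand) had 1450, 1246 and 1225 counts in control and 1079, 1314 and 1268 in SRRM4 KO libraries. The groups overlapped, at 54.9 to 66.9 CPM and 48.4 to 57.6 CPM. The log2 fold change was -0.17 (SE 0.10, 95% interval -0.39 to 0.06, adjusted p = 0.226), an interval that ends far below the change of SOX9, and it was -0.08 without control replicate 1 and -0.11 without SRRM4 KO replicate 1. PTHLH (ENSG00000087494; chromosome 12, 27958084 to 27972705, minus strand) had 48, 54 and 45 counts in control and 39, 48 and 45 in SRRM4 KO libraries, which overlapped too. Its level was 2.25 ± 0.246 and 1.92 ± 0.153 CPM (SD, n = 3 each), and its log2 fold change was -0.22 (SE 0.31, 95% interval -0.88 to 0.43, adjusted p = 0.60), or -0.14 without control replicate 2. An antisense gene, AC008011.2, shares 353 exon bases with PTHLH and had 0 counts in all 6 libraries.

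**Figure D1:**
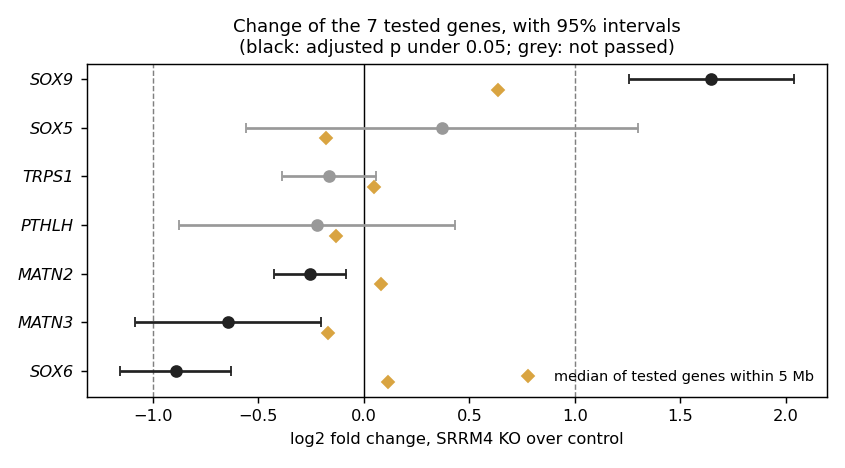
Log2 fold change (SRRM4 KO over control) of the 7 tested genes with 95% intervals, black where the adjusted p was under 0.05 and grey elsewhere, and the median of the other tested genes within 5 Mb of each (diamond). The interval of SOX9 (1.25 to 2.04) lies wholly above 1, those of MATN2, MATN3 and SOX6 lie wholly below 0, and those of SOX5, TRPS1 and PTHLH span 0.

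Per length, in TPM (counts divided by the gene length in the table and scaled to the same total in each library), the 8 genes kept most of their order. In control the order was MATN2 (135 ± 4.17), TRPS1 (24.5 ± 3.30), MATN3 (11.5 ± 3.46), SOX6 (9.58 ± 1.29), SOX9 (6.83 ± 1.85), PTHLH (3.00 ± 0.326), SOX5 (0.417 ± 0.0914) and COMP (0.107 ± 0.185), as mean ± SD TPM over 3 libraries. The libraries of MATN3, SOX6 and SOX9 overlapped in that order, and the other neighbours were apart. In the SRRM4 KO libraries SOX9 stood in the third place at 21.4 ± 2.04 TPM, overlapping with TRPS1 at 21.8 ± 2.08 TPM, ahead of MATN3 at 7.33 ± 0.158 TPM and SOX6 at 5.15 ± 0.625 TPM. MATN2 (113 ± 8.38 TPM), PTHLH (2.57 ± 0.224 TPM) and SOX5 (0.536 ± 0.136 TPM) kept their places, and COMP was at 0 in all 3.

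To ask directly whether the genes moved with SOX9, each gene was set against SOX9 of the same library, as the difference of log2(CPM + 0.5). On this scale, which takes no account of gene length, SOX6 lay above SOX9 by 3.07, 2.15 and 2.96 in the control libraries. In the SRRM4 KO libraries SOX6 lay above SOX9 by 0.49, 0.13 and 0.15. Only the change of the difference between the groups is read, not which gene is higher. The mean difference fell by 2.47. For MATN3 it fell by 2.16, for MATN2 by 1.85, for PTHLH by 1.78, for TRPS1 by 1.76 and for SOX5 by 1.35. In each of these 6 genes all 3 SRRM4 KO libraries lay below all 3 controls. A gene that did not change would fall by about the log2 fold change of SOX9 itself, 1.65, on this scale, so the values of TRPS1, PTHLH, SOX5 and MATN2 mainly restate the rise of SOX9. The exact two-sided permutation test gave p = 0.1 for each, the smallest that 3 against 3 libraries can give, and 0.1 after adjustment over 7 genes. All of these differences share the SOX9 values of the same libraries, so they are not independent of each other. COMP is left out here because its values rest on the pseudocount.

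SOX9 sits in a part of chromosome 17 whose genes were mostly higher in the SRRM4 KO line. Of 95 other tested genes within 5 Mb, 84 had a positive and 11 a negative log2 fold change, with a median of 0.64 (chromosome median 0.21). Among them 17 genes were called higher and 2 genes lower (5.45% and 7.14% of all tested genes), and over all tested genes 7597 log2 fold changes were positive and 7744 negative. SOX9 exceeded the 5 Mb median by 1.01, and 4 of the 95 genes had a log2 fold change above that of SOX9. The tested gene nearest to SOX9, the noncoding LINC00511 at 0.169 Mb (named after its values were seen), rose by 1.79 on the log2 scale (adjusted p = 0.00141), an estimate above that of SOX9. The excess was 1.31 within 1 Mb, where LINC00511 and 2 other genes were tested, and 1.02 within 10 Mb, where 9 of 212 genes lay above SOX9. Of the nearest protein-coding genes toward lower coordinates, KCNJ2, an inward rectifier potassium channel 1.94 Mb away, had a log2 fold change of 0.23 (adjusted p = 0.449). MAP2K6, a kinase of the p38 pathway 2.57 Mb away, had -1.23 (adjusted p = 0.101). Toward higher coordinates SLC39A11, a zinc transporter 0.52 Mb away, rose by 0.34 on the log2 scale (adjusted p = 0.0396), and COG1, a Golgi complex subunit 1.07 Mb away, rose by 0.68 on that scale (adjusted p = 3.49e-05). The part of this regional shift in the change of SOX9 was not tested. Around the other 7 genes the 5 Mb medians were closer to 0, at -0.18 for SOX5, 0.12 for SOX6, 0.18 for COMP, 0.08 for MATN2, -0.17 for MATN3, 0.05 for TRPS1 and -0.13 for PTHLH. Within 1 Mb the medians were -0.46 for MATN3 (10 tested genes, 8 of them lower) and -0.47 for SOX5 (6 tested genes). For the other genes they ran from -0.08 for PTHLH to 0.14 for COMP. The log2 fold change of MATN3 minus the median was -0.18 within 1 Mb and -0.48 within 5 Mb. Relative to the 5 Mb median of its own neighbours, SOX6 fell by 1.01 on the log2 scale. PLEKHA7, 0.0377 Mb from SOX6 toward higher coordinates and named after its values were seen, had a log2 fold change of -2.04 (adjusted p = 1.37e-05). On the other side CYP2R1, 1.07 Mb away, had -0.12 (adjusted p = 0.628). Whether SOX6 and PLEKHA7 fell together was not tested.

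Of the other genes of cartilage matrix, several of them known targets of SOX9 and its partners, none passed the test as higher. Of 20 listed genes 10 were tested, 6 were called lower and 0 higher (7.14% and 5.45% of all tested genes). Each of the 6 had fewer than 10 counts in some SRRM4 KO library and reached the test through its control level, so the count and the list's median are not read further, and a filter of at least 10 counts in every library left 0 called lower. The 3 genes with at least 10 counts in every library were COL9A2, COL11A2 (-0.67, adjusted p = 0.189) and HAPLN1. DESeq2 also called 6 lower and 0 higher, and at an unadjusted p under 0.05 edgeR had 1 higher, COL9A2 (0.45, adjusted p = 0.0775). ACAN, the core protein of aggrecan, was counted 2947, 3247 and 3460 times in the controls and had no count in any SRRM4 KO library. Against 3 counts in each of these libraries it was at least 1120-fold lower. PRELP, a leucine-rich repeat proteoglycan, had 496, 537 and 556 counts in control and 7, 20 and 21 in SRRM4 KO libraries (log2 fold change -5.11, adjusted p = 3.76e-10). FMOD, the collagen-binding proteoglycan fibromodulin, had 469, 433 and 431 counts in control and 9, 11 and 8 in SRRM4 KO libraries (-5.62, adjusted p = 3.82e-11). The other 3 called lower were COL11A1, COL9A3 and SCRG1. HAPLN1, the link protein of aggrecan, was singled out after its values were seen because it is the most abundant of the 20 listed genes in the SRRM4 KO line. It passed without being called, at 111 ± 10.1 CPM in control and 65.1 ± 1.57 CPM in SRRM4 KO (SD, n = 3 each, log2 fold change -0.77, adjusted p = 7.1e-06). The summed level of the 20 genes was 317 to 331 CPM in control and 79.2 to 82.6 CPM in SRRM4 KO libraries. ACAN alone had a mean of 147 CPM in control and 0 CPM in SRRM4 KO, so much of this drop is that of ACAN. UCMA and COL9A1 had no counts.

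Of the other 16 SOX genes 5 were tested, 1 passed lower and 0 higher (20.9% and 20.7% of all tested genes). SOX4, a SOX factor of progenitor cells, was called lower, going from 2061, 1914 and 1836 counts to 866, 880 and 817 (log2 fold change -1.25, adjusted p = 6.16e-08). The other 4 did not pass, 0 were higher at an unadjusted p under 0.05 in edgeR and DESeq2 called 0 higher, and the list median was -0.26. SOX1, SOX11, SOX14, SOX17, SOX21 and SOX30 had 0 counts in all 6 libraries.

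Among 14 regulators of chondrogenesis and cofactors of SOX9, 11 were tested, 1 passed higher and 6 lower (20.7% and 20.9% of all tested genes), and the median was -0.25. Called were 1 higher and 1 lower, near the shares of 5.45% and 7.14% over all tested genes. NKX3-2, a repressor that acts with SOX9 in early cartilage, had 23, 49 and 43 counts in control and 158, 228 and 196 in SRRM4 KO libraries, and was called higher (log2 fold change 2.27, SE 0.26, adjusted p = 4.96e-06). PAX9, a paired box factor of the sclerotome, was called lower, going from 261, 280 and 311 counts to 121, 122 and 129 (-1.26, adjusted p = 1.22e-05). NKX3-2 was thus the listed regulator that rose along with SOX9, with groups that did not overlap. BARX2 and PAX1 had no counts.

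PTHLH signals through the receptor PTH1R and is coupled to Indian hedgehog in the growth plate. Of the 17 other genes of both pathways 15 were tested, 5 were called lower and 0 higher (7.14% and 5.45% of all tested genes), 7 passed lower and 0 higher (20.9% and 20.7% of all tested genes), and the median was -0.30. DESeq2 called 5 lower and 0 higher, and 1 gene, CDON, was higher at an unadjusted p under 0.05 in edgeR. GAS1, a hedgehog co-receptor, fell from 25.1 ± 3.74 to 6.79 ± 0.607 CPM (log2 fold change -1.89, adjusted p = 1.17e-07). GLI2, a transcription factor of the pathway, fell from 26.9 ± 2.77 to 11.3 ± 0.903 CPM (-1.25, adjusted p = 2.28e-06), and PTCH1, the hedgehog receptor and a known target, from 16.0 ± 0.981 to 6.41 ± 0.988 CPM (-1.32, adjusted p = 7.45e-06; SD, n = 3 each). The other 2 called were HHIP and PTH1R. PTH1R, singled out after its values were seen as the receptor of the PTHLH product, had 39, 34 and 47 counts in control and 6, 0 and 0 in SRRM4 KO libraries. It reached the test through its control level, and with at least 10 counts in every library 4 genes were called lower. The difference between the changes of PTHLH and its receptor was not tested. IHH had 0 counts in all 6 libraries.

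Of 15 genes of chondrocyte hypertrophy and mineralisation 10 were tested, and all 10 passed, 2 higher and 8 lower (20.7% and 20.9% of all tested genes), with a median of -0.86. SPP1, which encodes osteopontin, was called higher, from 400, 428 and 419 counts to 2416, 2792 and 2796 (log2 fold change 2.62, SE 0.10, adjusted p = 4.85e-11). Called were 1 higher and 5 lower (5.45% and 7.14% of all tested genes). Of the 5 called lower, the most abundant were MEF2C, a transcription factor that drives hypertrophy (-1.08, adjusted p = 5.15e-06), HDAC4, a deacetylase that restrains it (-1.07, adjusted p = 2.37e-05), and ALPL, the alkaline phosphatase of mineralising cells (-1.13, adjusted p = 3.54e-06). MEF2C did not reach the fold threshold without control replicate 1, nor HDAC4 without SRRM4 KO replicate 3. RUNX2, a main activator of hypertrophy named here after its values were seen, rose by 0.61 on the log2 scale (adjusted p = 0.00226). RUNX3, also named after its values were seen, had 198, 228 and 189 counts in the controls and 4, 2 and 0 in the SRRM4 KO line. It reached the test through its control level, and with at least 10 counts in every library 4 genes of the list were called lower. PANX3 had no counts, and the hypertrophic marker genes COL10A1 and MMP13 had at most 4 and 6 counts.

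Of 8 genes of joints and tendon 5 were tested, 2 were called lower and 0 higher (7.14% and 5.45% of all tested genes), 0 were higher at an unadjusted p under 0.05 or called higher by DESeq2, and the median was -0.96. GDF6, a growth factor of joint formation, fell from 51.9 ± 6.49 to 17.8 ± 1.37 CPM (SD, n = 3 each, log2 fold change -1.54, adjusted p = 8.5e-08). THBS4, a thrombospondin of the same subfamily as COMP, had 14, 13 and 12 counts in control and 3, 6 and 4 in SRRM4 KO libraries (-1.63, adjusted p = 0.0469). It reached the test through its control level, and with at least 10 counts in every library only GDF6 was called lower. THBS4 did not pass in any of the 6 fits that left out 1 library (adjusted p from 0.0822 to 0.157). TNMD had no counts.

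Of 19 genes that build and sulfate chondroitin sulfate, the sugar chain of cartilage proteoglycans, 17 were tested, 3 passed higher and 10 lower (20.7% and 20.9% of all tested genes), and the median was -0.29. Called were 1 higher and 3 lower (5.45% and 7.14% of all tested genes). XYLT2, which starts the chain and lies on chromosome 17 like SOX9, was called higher (log2 fold change 1.03, adjusted p = 5.1e-06) and fell below the threshold of 1 without control replicate 1 or SRRM4 KO replicate 1. XYLT1, the other chain-starting enzyme, was called lower (-1.29, adjusted p = 3.54e-07). The chain-extending genes CHPF (-1.21, adjusted p = 2.32e-08) and CHSY3 (-1.42, adjusted p = 7.08e-08) were called lower too. The pair of xylosyltransferase genes therefore passed in opposite directions. The lists hold genes of known function chosen by hand, and no list was tested as a whole.

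The protein-coding genes with the profile most like SOX9 over the 6 libraries, by the root mean square difference of centred log2(CPM + 0.5) among 12957 genes, were CDHR1 (0.139), IRF7 (0.150), MILR1 (0.152), WNT5B (0.157) and LRP8 (0.158). These are a photoreceptor cadherin, an interferon regulatory factor, a mast cell receptor, a WNT ligand and a lipoprotein receptor, and MILR1 lies on chromosome 17 as SOX9 does. In the same order SOX5 took rank 4801, PTHLH 7925, TRPS1 8212, MATN2 8885, MATN3 11362 and SOX6 11953. None of the 6 was near SOX9 in this order, and SOX6 was the farthest. With a pseudocount of 2, 1 of the 5 nearest genes was shared.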

How the data were processed

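Non-stranded mRNA-seq libraries were made from control (3) and SRRM4 KO (3) UE7T-9 cells. The authors deposited raw read counts per gene, without normalization, and a gene length in bases as another column. The submitters' processing notes name HISAT2 2.0.5, featureCounts 1.5.0-p3 and DESeq2. The genome build is not given in the sources used here. All 58735 gene IDs were found in GENCODE release 29 (GRCh38), 58724 with identical coordinates, and 27405 genes had counts. Groups and replicate numbers came from the titles and genotypes.

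Counts were tested with edgeR 4.0.16 in R 4.3.3 (TMM, filterByExpr, quasi-likelihood test, group as the only term, Benjamini-Hochberg over 15341 genes). Standard errors were log2 fold changes divided by the root of F. CPM used TMM-scaled library sizes, and TPM used the deposited gene lengths. Differences from SOX9 used a pseudocount of 0.5 and an exact two-sided permutation test. For a group with no library above 3 counts, folds are bounds against 3 counts in each library.

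The 8 genes and all lists were chosen with earlier results of these data known. Named were the 8 genes, SRRM4, the markers, at most 3 called genes per list and direction by highest mean CPM, silent genes, the 5 nearest profiles, and neighbours and overlapping genes. Alternatives were DESeq2 1.42.0, its size factors, upper-quartile factors, no filter, at least 10 counts in all libraries, a block for the replicate number, leaving out each library, a test against the fold threshold, no fold threshold, protein-coding genes only, chromosome or 5 Mb medians as reference, and other pseudocounts and windows. The procedure was tested on simulated counts. Replicates of a group differed by more than sampling noise (chi-square per degree of freedom 4.93 to 21.4).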

Additional observations from a re-analysis of the deposited data

How the results depend on the processing

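Of 105 values of the 7 tested genes under the alternatives, 96 kept their direction and side of the threshold, 5 lost the threshold, 4 moved with the reference level and 0 turned. The rise of SOX9 (1.52 to 1.90) and the fall of SOX6 (-0.98 to -0.81) passed in all 13 alternative fits that tested against no change. In the test against a log2 fold change of 1, 1 of the 7 tested genes was called higher and 0 lower, so SOX6 did not pass it. The 48 values relative to SOX9 kept their direction, which the rise of SOX9 fixes for an unchanged gene, so this says nothing of stability. Leaving out each library gave -0.31 to -0.22 for MATN2, which did not pass in 3 of 6 fits, and -0.81 to -0.42 for MATN3, which did not pass in 2. Minus the median within 5 Mb, the log2 fold change was 1.01 for SOX9, -0.34 for MATN2 and -0.091 for PTHLH, and minus the chromosome median it was -0.34 for MATN2. The limit of depth bears on SOX5, PTHLH and COMP, whose libraries held at most 54 counts.

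Of 270 counts of called genes 246 stayed within 1.5 times and 24 moved. Without a fold threshold the counts were 3 of the 8 genes lower, 6 regulators lower, 2 hypertrophy genes higher and 8 lower, 3 chondroitin sulfate genes higher and 10 lower, and 3171 genes higher and 3213 lower in all. In the test against a log2 fold change of 1 they were 0 regulators lower, 3 PTHrP and hedgehog genes lower, 1 hypertrophy gene lower, 1 joint and tendon gene lower, 0 chondroitin sulfate genes higher, and 360 genes higher and 577 lower in all. With at least 10 counts in every library, which removes low genes by construction, 0 cartilage matrix genes and 1 joint and tendon gene were lower, and with upper-quartile factors 0 chondroitin sulfate genes were higher. Leaving out each library gave 1 to 2 joint and tendon genes lower and 0 to 1 chondroitin sulfate genes higher. THBS4 passed in none of these fits, so it was not among the joint and tendon genes called in them. MKX, which passed in the main fit without being called (log2 fold change -0.96, adjusted p = 1.85e-06), went as low as -1.04 in them. The cause of the other shifts was not tested.

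The titles number the replicates 1 to 3 in both groups. Deviations of libraries with the same number correlated at -0.09, 0.11 and -0.10, so the numbers were not taken as pairs. With a replicate block 1 joint and tendon gene was called lower in place of 2, no other list count changed, and over all genes 842 were called higher and 1093 lower.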

Other observations

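The hexamers ACAAAG and ACAATG, forms of the motif that SOX factors bind, were counted on both strands in the 250 bases before each RefSeq start (GRCh38.p14). Of 35116 promoters 13.7% held ACAAAG, 9.29% held ACAATG and 21.2% held either. Of the 5 genes with an entry (SOX5, SOX6, COMP, MATN3 and PTHLH), 1 held a hexamer, SOX5 with ACAATG at 2 places on the reverse strand. Of 17 cartilage matrix genes with an entry, 4 held one (COL9A2, HAPLN1, EPYC and SCRG1), and of these COL9A2 did not pass the test, HAPLN1 and SCRG1 passed lower, and EPYC was not tested. A match describes these letters only and does not show that a factor binds there.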
